A study of Mus musculus with 7 samples.

Results

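The genes described here are 10 markers of the adrenal stroma, capsule and pericytes: Pdgfra, Pdgfrb, Dcn, Lum, Dpt, Postn, Mgp, Acta2, Rgs5 and Cspg4. They were chosen by name and make up 10 of the 20719 genes measured. Each was represented by the 1 transcript cluster that carried its symbol. Expression was measured on Affymetrix Mouse Gene ST strip arrays in cells sorted from the adrenals of 6-week-old male C57BL/6J mice. The Wnt+ group (3 arrays) came from mice with the TCF/Lef:H2B-GFP transgene, in which multimerised TCF/Lef sites and a minimal Hspa1b promoter drive a nuclear histone-GFP fusion that reports canonical Wnt signalling. The SF1+ group (4 arrays) came from mice with the Sf1:eGFP transgene, in which a BAC fragment of Nr5a1 drives eGFP in steroidogenic cells. Each array held RNA from a separate sort of viable GFP-positive cells from 10 pooled adrenals, and the labels call both groups adrenocortical cells. Because the 2 reporters were carried by different mice, the transgenic line and the sorted population cannot be told apart. No untreated or unsorted adrenal was analysed here.

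The adrenal gland is wrapped in a capsule of fibroblast-like mesenchymal cells, and its cortex is threaded by sinusoidal capillaries. Fibroblasts secrete collagens and the small leucine-rich proteoglycans that space collagen fibrils. Pericytes and smooth muscle cells, together called mural cells, sit on the vessel wall and depend on platelet-derived growth factor (PDGF) released by the endothelium. The 10 genes are not used as markers of steroidogenic cells.

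The 7 arrays had medians of 3.13 to 3.23 over all genes on the log2 scale of robust multi-array average (RMA) values, on which all expression values and differences below are given. Pearson's r over all genes, which are not independent replicates, was 0.962 to 0.968 within Wnt+, 0.972 to 0.983 within SF1+ and 0.926 to 0.969 across the groups. Nr5a1, the gene whose fragment drives the SF1 reporter, averaged 7.30 ± 0.38 in Wnt+ (SD, n = 3) and 5.75 ± 0.47 in SF1+ (SD, n = 4), which runs against the labels (limma adjusted p = 0.0938). All directions below rest on those labels. Among the arrays, Wnt+ replicate 2 and SF1+ replicate 1 were often low for the stromal genes. Both were picked out on these same genes, so the shares over all genes that follow are a description only. SF1+ replicate 1 was the lowest of the 4 SF1+ arrays for 8 of the 10 genes, against 29.0% of all genes. Wnt+ replicate 2 was the lowest of the 3 Wnt+ arrays for 10 of the 10 genes, against 33.7% of all genes. The 10 differences are therefore also given without Wnt+ replicate 2.

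Stromal transcripts were present in both sorts, and none of the 10 genes was called different between them. The largest differences were 1.29 for Dpt and 1.26 for Postn, both matrix genes, while the matrix gene Mgp differed by 0.09. The mural genes Acta2, Rgs5 and Cspg4 differed by -0.23, 0.05 and 0.19. In limma fitted over all genes, 0 of the 10 genes passed an adjusted p of 0.05 (background 0.256% of all genes, 0.0531% higher and 0.203% lower in Wnt+), and their adjusted p lay between 0.206 and 0.975. A fit without variance moderation called 0 of the 10, but it called 0 over all genes too, so that count says nothing about the 10. At an unadjusted p under 0.05 there was 1 gene, Postn, with a positive difference (background 15.5%, 7.61% positive and 7.89% negative). The difference, always Wnt+ minus SF1+, was positive for 9 genes (background 54.8%) and negative for 1, with a median of 0.40 against 0.02 over all genes. In 0 of the 10 genes did the arrays of the groups separate without overlap (background 14.1%, 7.04% with Wnt+ above and 7.07% with Wnt+ below). In sorted bulk samples, fewer cells of a type and less RNA per cell cannot be told apart.

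**Figure D1:**
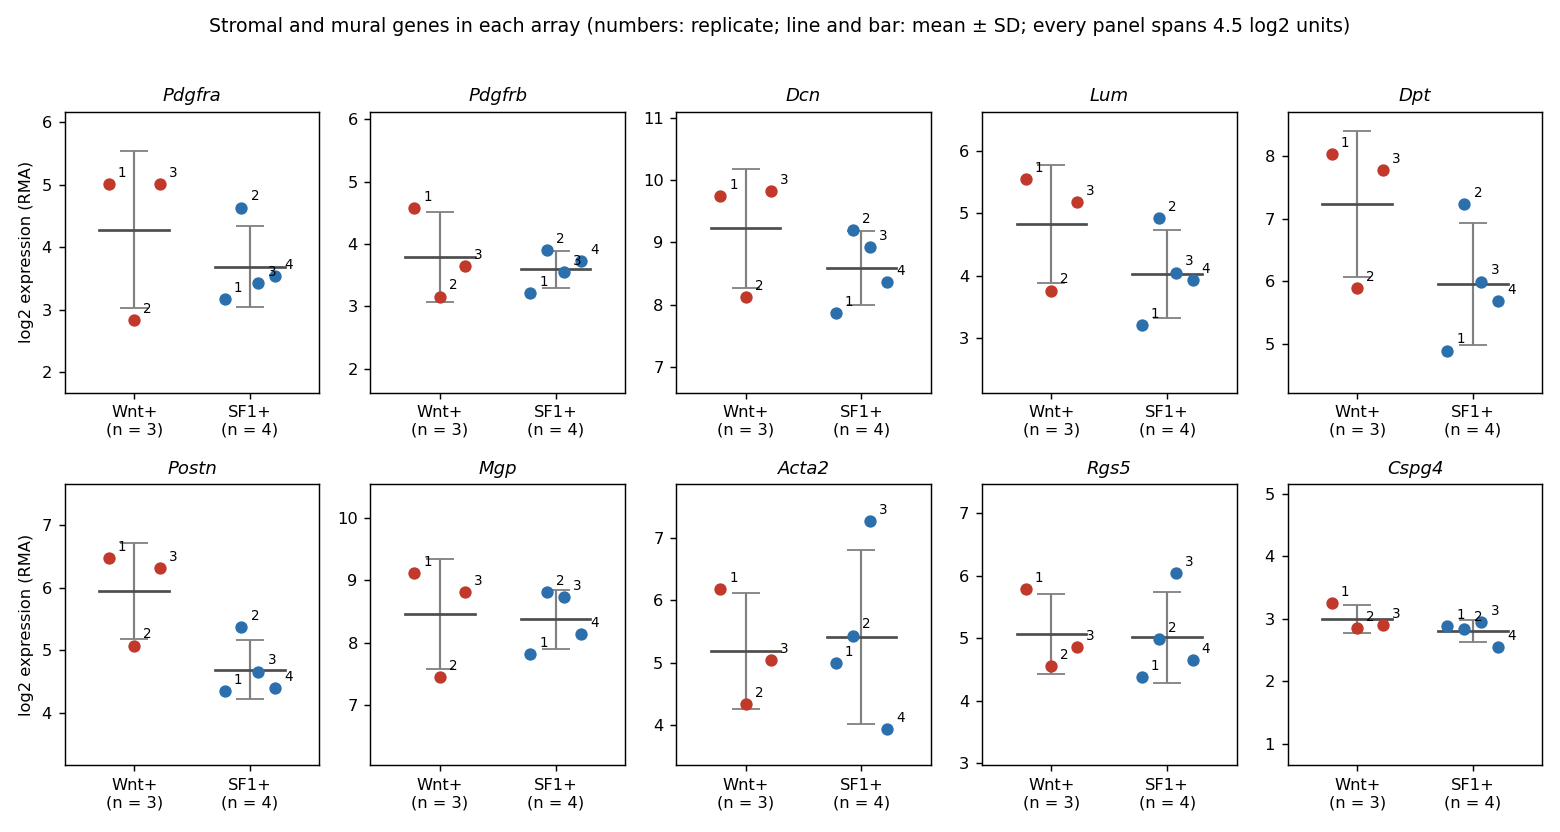
Log2 expression of the 10 genes in each array, Wnt+ in red on the left and SF1+ in blue on the right of each panel, with replicate numbers beside the points and the mean ± SD in grey. Wnt+ replicate 2 is the lowest red point in every panel, and the red and blue points overlap in all 10.

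The spread between sorts of 1 group was wide for these genes. The residual SD, which is the spread of the arrays around their group means, had a median of 0.73 over the 10 genes. The median was 0.19 over all genes and 0.31 over the 10359 genes with a mean above that of the median gene. Among the 10 genes it ranged from 0.19 for Cspg4 to 1.23 for Acta2. Cspg4 was also the 1 gene of the 10 that a filter on dim genes removed.

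Postn encodes periostin, a matricellular protein of fibroblasts and remodelling connective tissue. It had 6.47, 5.08 and 6.31 in Wnt+ replicates 1, 2 and 3, against 4.34, 5.38, 4.66 and 4.40 in SF1+ replicates 1, 2, 3 and 4. Wnt+ replicate 2 lay below SF1+ replicate 2, and the other Wnt+ arrays lay above all SF1+ arrays. The difference was 1.26 (SE 0.40, 95% confidence interval 0.32 to 2.20, limma adjusted p = 0.206), a 2.40-fold ratio of the group means. Without Wnt+ replicate 2 it was 1.70 (limma adjusted p = 0.125).

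Dpt encodes dermatopontin, a small collagen-binding matrix protein that marks fibroblasts of many tissues. It had 8.04, 5.89 and 7.78 in Wnt+ replicates 1, 2 and 3, against 4.89, 7.24, 6.00 and 5.69 in SF1+ replicates 1, 2, 3 and 4. SF1+ replicate 2 exceeded Wnt+ replicate 2, and SF1+ replicate 1 was the lowest array. The difference of 1.29 (SE 0.69, 95% confidence interval -0.34 to 2.91, limma adjusted p = 0.443) was a 2.44-fold ratio of the means and was 1.96 without Wnt+ replicate 2. The promoters of Dpt and Postn are shown because these genes had the largest differences and one of the groups was sorted on a TCF/Lef reporter. Sequences run from 250 bases before to 50 bases after the start of the gene in RefSeq (build GRCm38.p6). Capitals mark TATAAA or TATATA, the TATA box letters. For Postn the window of the downstream of its 2 starts is given, and the upstream window held no TATA letters.
Dpt, chr1:164796413-164796712, plus strand: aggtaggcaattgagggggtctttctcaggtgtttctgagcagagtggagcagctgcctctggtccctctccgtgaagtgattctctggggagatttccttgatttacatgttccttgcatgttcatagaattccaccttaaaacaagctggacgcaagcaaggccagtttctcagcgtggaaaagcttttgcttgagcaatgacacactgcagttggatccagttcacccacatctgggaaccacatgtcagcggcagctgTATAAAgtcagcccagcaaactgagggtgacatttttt
Postn, chr3:54360857-54361156, plus strand: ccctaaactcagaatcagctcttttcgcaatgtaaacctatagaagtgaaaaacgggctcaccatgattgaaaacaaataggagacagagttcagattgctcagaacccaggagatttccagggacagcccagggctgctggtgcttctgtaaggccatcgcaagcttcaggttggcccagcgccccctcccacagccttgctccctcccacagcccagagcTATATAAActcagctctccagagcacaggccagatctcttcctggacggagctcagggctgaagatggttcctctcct
Overlapping TATATA and TATAAA matches lay at positions -28 to -23 and -26 to -21 from the start in Postn, and a TATAAA match at 13 to 18 in Dpt. Such a match on either strand occurred in 17.1% of 32851 promoter windows of this length. Windows were searched for 6 of the 10 genes: Acta2, Cspg4, Dpt, Pdgfra, Postn and Rgs5. Pdgfrb was left out of this search, and Dcn, Lum and Mgp had no window. The windows of Cspg4 and Pdgfra held no TATA letters. The TCF/Lef letters CTTTG followed by AA, AT, TA or TT were searched on both strands. They had 0 matches in the 7 windows of the 6 genes searched, against 16.9% of all windows holding one.

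Dcn and Lum encode decorin and lumican, small leucine-rich proteoglycans that bind collagen fibrils, and are neighbours on mouse chromosome 10. Dcn had 9.74, 8.13 and 9.82 in Wnt+ replicates 1, 2 and 3, against 7.87, 9.20, 8.92 and 8.37 in SF1+ replicates 1, 2, 3 and 4. Lum had 5.54, 3.76 and 5.18 in the Wnt+ arrays, against 3.21, 4.92, 4.05 and 3.93 in the SF1+ arrays. In both genes Wnt+ replicates 1 and 3 were the highest arrays and SF1+ replicate 1 the lowest. Dcn differed by 0.64 (SE 0.49, limma adjusted p = 0.608) and Lum by 0.80 (SE 0.53, limma adjusted p = 0.539). Kera and Epyc, the proteoglycan genes that follow Lum on the chromosome and were picked for that position, stayed between 2.01 and 2.35 in all arrays, below the median of 3.19 over the mean levels of all genes.

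Mgp encodes matrix Gla protein, a vitamin K-dependent inhibitor of calcification made by fibroblasts and vascular cells. It had 9.12, 7.46 and 8.81 in Wnt+ replicates 1, 2 and 3, against 7.82, 8.81, 8.73 and 8.14 in SF1+ replicates 1, 2, 3 and 4. Wnt+ replicate 2 was the lowest of all arrays and Wnt+ replicate 1 the highest. The difference was 0.09 (SE 0.44, 95% confidence interval -0.95 to 1.12, limma adjusted p = 0.956), with values of 0.59 when Wnt+ replicate 2 was left out and -0.24 when Wnt+ replicate 1 was.

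Pdgfra encodes the PDGF receptor of fibroblasts and mesenchymal progenitors, and Pdgfrb the PDGF receptor of pericytes and smooth muscle. Pdgfra had 5.01, 2.83 and 5.01 in Wnt+ replicates 1, 2 and 3, against 3.17, 4.63, 3.42 and 3.54 in SF1+ replicates 1, 2, 3 and 4. The lowest and the highest of all 7 arrays for Pdgfra were therefore both Wnt+ arrays. Its difference was 0.59 (SE 0.61, limma adjusted p = 0.719), and it was 1.32 without Wnt+ replicate 2. Pdgfrb had 4.58, 3.16 and 3.65 in the Wnt+ arrays, against 3.21, 3.90, 3.55 and 3.73 in the SF1+ arrays. Its difference of 0.20 (SE 0.34, limma adjusted p = 0.844) was -0.19 without Wnt+ replicate 1, which was its highest array.

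Of the 4 PDGF ligand genes, 0 passed the adjusted threshold. Pdgfb, the ligand by which endothelial cells recruit pericytes, had 5.01, 3.91 and 4.13 in Wnt+ replicates 1, 2 and 3, against a span of 5.47 to 5.68 in the 4 SF1+ arrays. These groups did not overlap. The difference was -1.22 (SE 0.25, limma adjusted p = 0.111), and the endothelial markers given below were also at lower values in Wnt+. The part of the endothelial level in the Pdgfb difference was not tested. Pdgfa differed by 0.41 (SE 0.38), Pdgfc by 0.25 (SE 0.15) and Pdgfd by 0.28 (SE 0.23).

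Acta2 encodes smooth muscle alpha-actin, the contractile actin of smooth muscle, some pericytes and myofibroblasts. It had 6.18, 4.34 and 5.04 in Wnt+ replicates 1, 2 and 3, against 5.00, 5.43, 7.28 and 3.94 in SF1+ replicates 1, 2, 3 and 4. The SF1+ arrays alone spanned 3.34, the widest range of any of the 10 genes, and held both the highest and the lowest array. The difference was -0.23 (SE 0.80, 95% confidence interval -2.11 to 1.66, limma adjusted p = 0.934), and it was 0.39 without SF1+ replicate 3 and 0.20 without Wnt+ replicate 2.

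Rgs5 encodes a regulator of G protein signalling that is a standard pericyte marker. It had 5.79, 4.55 and 4.86 in Wnt+ replicates 1, 2 and 3, against 4.38, 4.99, 6.05 and 4.65 in SF1+ replicates 1, 2, 3 and 4. As with Acta2, SF1+ replicate 3 was the highest array and Wnt+ replicate 1 came next. The difference was 0.05 (SE 0.46, 95% confidence interval -1.02 to 1.13, limma adjusted p = 0.975). The promoters of Acta2 and Rgs5 are shown because these mural genes shared their highest arrays. Capitals mark the TATA letters given above and, in Acta2, the elements CCCTATATGG and CCTTGTTTGG. These have the form of CArG elements, the binding sites of serum response factor in smooth muscle genes, searched here as CC, then 6 bases of which at least 5 are A or T, then GG.
Acta2, chr19:34255324-34255623, minus strand: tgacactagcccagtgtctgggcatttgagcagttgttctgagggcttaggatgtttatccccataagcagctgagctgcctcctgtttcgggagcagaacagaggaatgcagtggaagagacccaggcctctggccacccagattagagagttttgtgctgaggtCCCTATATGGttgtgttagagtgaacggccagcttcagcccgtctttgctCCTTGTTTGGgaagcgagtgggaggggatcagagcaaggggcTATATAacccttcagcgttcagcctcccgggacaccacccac
Rgs5, chr1:169655251-169655550, plus strand: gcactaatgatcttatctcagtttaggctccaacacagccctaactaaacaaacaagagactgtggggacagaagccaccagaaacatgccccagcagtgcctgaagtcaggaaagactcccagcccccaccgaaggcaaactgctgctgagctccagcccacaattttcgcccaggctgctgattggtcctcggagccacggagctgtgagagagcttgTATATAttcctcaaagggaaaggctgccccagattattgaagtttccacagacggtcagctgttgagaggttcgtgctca
The Acta2 elements lay at positions -84 to -75 and -34 to -25 from the RefSeq start, and the TATA letters at 9 to 14. In Rgs5 the TATA letters lay at -30 to -25. On either strand, the CArG-like form was found in 9.98% of the 32851 windows. Among the 7 windows searched, which left out Pdgfrb, it was found in that of Acta2 alone. The exact letters of the first Acta2 element were found in 0.0274% of all windows and those of the second in 0.0791%. These letters were copied from the Acta2 window, which is among those counted. The exact letters of any such stretch would be rare, so these shares do not show that the elements are particular to Acta2.

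Cspg4 encodes the NG2 proteoglycan of pericytes and glial progenitors. It had 3.25, 2.85 and 2.89 in Wnt+ replicates 1, 2 and 3, against 2.89, 2.84, 2.95 and 2.55 in SF1+ replicates 1, 2, 3 and 4. All but 1 of these values lay below the median of their array, in a range where RMA compresses differences. The difference was 0.19 (SE 0.14, limma adjusted p = 0.585).

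**Figure D2:**
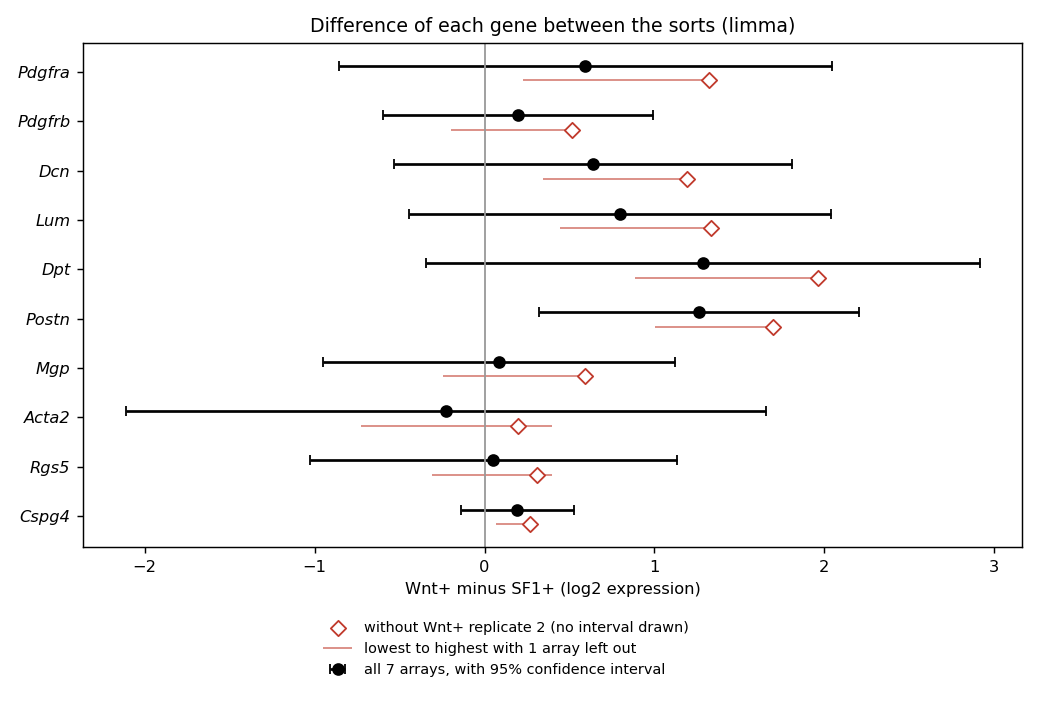
Difference of each gene, Wnt+ minus SF1+ on the log2 scale, with its 95% confidence interval from the fit on all 7 arrays in black. The red line spans the lowest to the highest difference with 1 array left out, and the diamond is the value without Wnt+ replicate 2, which lies at the upper end for 8 of the 10 genes.

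The counts over these genes depended on Wnt+ replicate 2. This array was singled out because it was the lowest Wnt+ array for all 10 genes. Leaving it out therefore had to raise each difference. The background shares below are over genes not chosen in this way, so these counts are a description only. Without it, 5 of the 10 genes had an unadjusted p under 0.05, all with a positive difference (background 12.3%, 6.15% positive), and 0 passed the adjusted threshold (background 0.0386%, lowest limma adjusted p = 0.125). The 5 were Pdgfra (1.32), Dcn (1.19), Lum (1.33), Dpt (1.96) and Postn (1.70). The other differences without this array were 0.59 for Mgp, 0.52 for Pdgfrb, 0.31 for Rgs5, 0.27 for Cspg4 and 0.20 for Acta2. For Pdgfra, Dcn, Lum, Dpt, Postn and Mgp, 6 of 10 genes, the arrays of the groups no longer overlapped without it, with Wnt+ above (background 21.3%, 11.4% with Wnt+ above). For Mgp, Wnt+ replicate 3 and SF1+ replicate 2 differed by less than the last digit printed. The median difference was 0.89, against 0.01 over all genes. Without Wnt+ replicate 1 or replicate 3, 0 genes had an unadjusted p under 0.05 (background 16.7% or 14.6%), and the median difference was 0.15 or 0.26. Without SF1+ replicate 2 there were 2 such genes, Dpt and Postn (background 12.4%), and 1 of the 10 genes did not overlap (background 17.4%). Without SF1+ replicate 1 the median difference was 0.31.

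The 10 genes, grouped by role, differed in part in their patterns across the arrays. The 5 matrix genes Dcn, Lum, Dpt, Postn and Mgp ranked the SF1+ arrays alike, with replicate 2 highest, then 3, then 4, and replicate 1 lowest. That order was found in 4.77% of all genes. It and the patterns below were read from these same genes, so the shares over all genes are a description only. Both PDGF receptors also had SF1+ replicate 2 highest and replicate 1 lowest, with replicate 4 above replicate 3. Wnt+ replicates 1 and 3 exceeded all other arrays in 5 of the 5 matrix genes, against 5.94% of all genes. For the mural genes Acta2, Rgs5 and Cspg4, SF1+ replicate 3 was instead the highest SF1+ array in 3 of 3, against 24.7% of all genes. With each gene centred on its own mean, the matrix genes averaged 1.11, -0.62 and 0.91 in Wnt+ replicates 1, 2 and 3, against -1.05, 0.43, -0.21 and -0.57 in SF1+ replicates 1, 2, 3 and 4. The mural genes averaged 0.66, -0.50 and -0.15 in the Wnt+ arrays, against -0.33, 0.01, 1.01 and -0.70 in the SF1+ arrays. SF1+ replicate 3 was thus below the matrix average and above the mural one.

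The genes closest to each of these profiles were named from 5176 genes with a range of at least 1, by the root mean square distance of centred log2 values over the 7 arrays. Closest to the matrix profile were Gsn (distance 0.12), which encodes the actin-severing protein gelsolin, Pi16 (0.19), a marker of adventitial fibroblasts, and Fbln5 (0.21), the elastic fibre protein fibulin-5. They were followed by Serping1 (0.22), the complement C1 inhibitor, and Serpinf1 (0.22), which encodes pigment epithelium-derived factor. Gsn had 7.92, 6.31 and 7.77 in Wnt+ replicates 1, 2 and 3, against 5.78, 7.20, 6.36 and 6.37 in SF1+ replicates 1, 2, 3 and 4. Closest to the mural profile were P2ry2 (0.20), Ccdc25 (0.21), Ndufa4l2 (0.22), Tagln (0.24) and Cyb5d1 (0.25). Of these, Tagln encodes the smooth muscle protein transgelin and Ndufa4l2 is a pericyte marker. Each profile was the mean of its own genes, so these lay nearer to it in part by construction. The distances of the members are therefore a description only. The member most distant from the matrix profile was Acta2 (1.04), which lay 0.49 from the mural profile, of which it is a part. Other members were not sharply divided. Mgp lay 0.40 from the matrix profile and 0.45 from the mural one, and Pdgfrb 0.49 and 0.53.

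**Figure D3:**
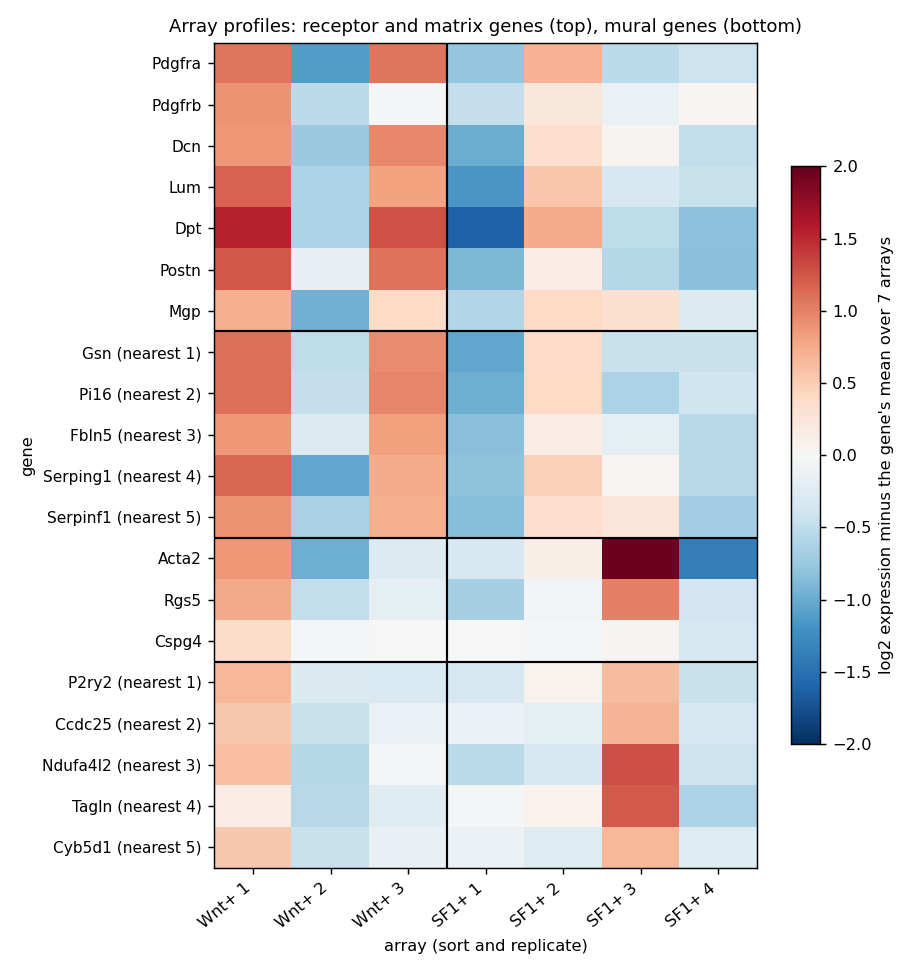
Log2 expression of each gene minus its own mean over the 7 arrays (red above, blue below), with Wnt+ arrays on the left and SF1+ arrays on the right. Pdgfra and the matrix genes with their 5 nearest genes are high in Wnt+ replicates 1 and 3, while Pdgfrb is near its mean in replicate 3. Acta2, Rgs5 and the 5 nearest mural genes are high in Wnt+ replicate 1 and SF1+ replicate 3, and Cspg4 varies little.

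Other fibroblast markers also had mostly positive differences. Of 20 such genes, 0 passed the adjusted threshold. At an unadjusted p under 0.05, 5 had a positive and 2 a negative difference (background 7.61% and 7.89% of all genes). Over the 20 genes, 17 differences were positive (background 54.8%), with a median of 0.58. Their mean level was 4.99 in Wnt+ replicate 2 and 6.24 to 6.27 in the other Wnt+ arrays, against a span of 5.04 to 5.69 in SF1+. Pcolce, which enhances procollagen processing, had the smallest p and differed by 1.07 (SE 0.17, limma adjusted p = 0.0703), with 9.47, 9.96 and 9.71 in Wnt+ replicates 1, 2 and 3, against a span of 8.43 to 8.87 in SF1+. Its highest array was Wnt+ replicate 2, unlike the 10 stromal genes. Fbln1, which encodes fibulin-1, differed by 0.67 (SE 0.14). The fibrillar collagen genes Col1a1, Col1a2 and Col3a1 differed by 0.51, 0.57 and 0.87, and the proteoglycan gene Bgn by 0.00. Thy1 (-1.79), Ly6a (-1.09) and Cd34 (-1.06) had negative differences. Thy1 and Ly6a are also expressed by lymphoid or endothelial cells, and the part of such cells in these differences was not tested.

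Markers of pericytes and smooth muscle were divided. Of 26 genes, 0 passed the adjusted threshold, and the median was -0.06. At an unadjusted p under 0.05, 1 had a positive and 5 a negative difference (background 7.61% and 7.89% of all genes). Kcnj8, a potassium channel subunit of pericytes, had 4.83, 3.22 and 3.43 in Wnt+ replicates 1, 2 and 3, against 5.53, 6.08, 6.58 and 5.22 in SF1+ replicates 1, 2, 3 and 4, with no overlap. It differed by -2.03 (SE 0.47, limma adjusted p = 0.127). Mcam, an adhesion molecule of pericytes and endothelium, differed by -1.32 (SE 0.32), the smooth muscle gene Smtn by -1.07 (SE 0.39), and the Notch target Heyl by 0.59 (SE 0.23). The smooth muscle genes Myh11 and Tagln differed by -0.51 (SE 0.44) and -0.38 (SE 0.42), and Des, which encodes desmin, by -0.14 (SE 0.17). SF1+ replicate 3 was the highest of all arrays for 13 of the 26 genes, against 14.0% of all genes.

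Of 8 markers of the adrenal capsule, 4 had a mean below that of the median gene. None passed the adjusted threshold in limma, and 0 had an unadjusted p under 0.05. Gli1, which marks hedgehog-responsive capsular cells, had 2.93, 2.80 and 3.09 in Wnt+ replicates 1, 2 and 3, against a span of 2.68 to 3.03 in SF1+. Rspo3, the capsular R-spondin, ranged between 2.53 and 2.61 in Wnt+, against 2.38 to 3.31 in SF1+. Nr2f2 differed by -0.41 (SE 0.26), Nr2f1 by 0.32 (SE 0.23), Wt1 by 0.25 (SE 0.20) and Hhip by 0.11 (SE 0.09).

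**Figure D4:**
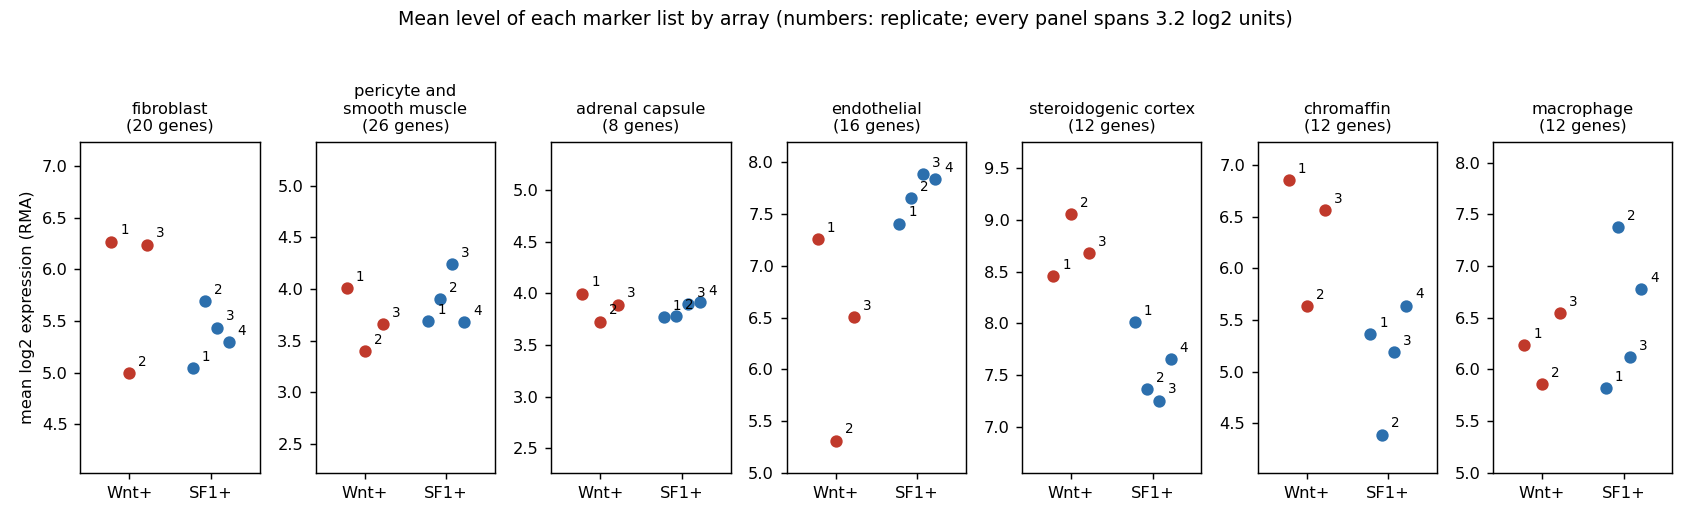
Mean log2 expression of each marker list by array, Wnt+ in red on the left and SF1+ in blue on the right of each panel, with replicate numbers beside the points. Wnt+ replicate 2 is the lowest Wnt+ array for every list drawn except the steroidogenic one, where it is the highest at 9.05.

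The levels of endothelial and steroidogenic markers also differed between the arrays. The mean of 16 endothelial markers was 7.26, 5.31 and 6.51 in Wnt+ replicates 1, 2 and 3, against a span of 7.41 to 7.88 in SF1+. Of these markers, 13 had a negative difference at an unadjusted p under 0.05 (background 7.89% of all genes). Pecam1 differed by -1.69 (SE 0.46) and Cdh5 by -1.48 (SE 0.41). The mean of 12 steroidogenic markers was 8.46, 9.05 and 8.68 in Wnt+ replicates 1, 2 and 3, against 8.01, 7.37, 7.25 and 7.65 in SF1+ replicates 1, 2, 3 and 4. Wnt+ replicate 2 and SF1+ replicate 1, each the highest of its group for these steroidogenic markers, were the lowest of their groups for all 5 matrix genes. The part of the steroidogenic or endothelial level in the stromal differences was not tested.

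The authors' deposited table also gave, for another experiment, a fold change and paired p-value for Bio against vehicle in 4 pairs of mouse adrenocortical tumour cell lines. In the authors' deposited table, 9 of the 10 genes had a fold below 1 (background 53.9%), some of them close to 1. Besides Acta2, given below, the folds were 0.99 for Pdgfrb, 0.98 for Cspg4, 0.98 for Lum and 0.93 for Mgp. Dpt was at 0.91, Rgs5 at 0.90, Pdgfra at 0.87 and Postn at 0.86. There, 1 of the 10 had a paired p under 0.05, with a fold below 1 (background 35.5% with such a p in either direction, 17.3% with such a p and a fold below 1). That gene was Acta2, with a fold of 0.617 and a paired p of 0.00276 in the authors' deposited table. Dcn was the 1 gene with a fold above 1 there, at 1.23 with a paired p of 0.192. The per-sample values behind these ratios were not analysed here.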

How the data were processed

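Each of 7 sorts was hybridised to 1 array, and sample titles gave the group and the replicate number. The deposited log2 values per transcript cluster were made by the authors with RMA (oligo package), per the submitters' processing notes (version and genome build not given in the sources used here). Such values share 1 distribution over all arrays, and differences of dim genes are compressed. Per the file headers, the same table of the authors gives unadjusted p-values and linear fold changes (ratios). A further 7 per-sample columns were not used.

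Of 28944 clusters, 23812 had a symbol, and 23508 matched RefSeq (GRCm38.p6) by Entrez identifier for current symbols. The cluster with the highest mean stood for each of 20719 genes, with no filter. Wnt+ minus SF1+ was fitted with limma 3.58.1 in R 4.3.3 (prior degrees of freedom 1.98) and adjusted by Benjamini-Hochberg over all genes, two-sided. The labels state 4 independent sorts per genotype, but only 3 Wnt+ arrays were given here, and the number of arrays limits precision. The fit was tested on simulated data. The 10 genes, the 13 other lists and the tests were chosen with earlier results of these data known. The named genes were all 10, the 4 of each list with the largest difference past the threshold, or else the smallest p, defining markers, and the 5 nearest each profile. Lists were described without set tests. Alternatives were a replicate block, each array left out, other scalings, weights, moderation, cluster choices, thresholds and the series matrix's values. Plots used matplotlib 3.10.9 in Python 3.11.15.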

Additional observations from a re-analysis of the deposited data

How the results depend on the processing

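None of the 10 genes passed the adjusted threshold in limma under the 18 alternatives run, where the lowest adjusted p was 0.1. Under the 11 alternatives that kept every array, 108 of 109 gene differences had the same sign as reported. The exception was Rgs5, at -0.070 with the replicate block. Most of this agreement was fixed in advance. The dim-gene filter, moderation, cluster choice, threshold and series matrix values left the differences unchanged. Only the replicate block, median-centring, quantile normalisation and array weights could move them. The count of the 10 genes with an unadjusted p under 0.05 was 1, with 0 under the replicate block, and ranged from 0 to 5 with each array left out. Their count without overlap ranged from 0 to 6. With 1 array left out, the signs changed for Pdgfrb (lowest -0.19, highest 0.52), Mgp (-0.24 to 0.59), Acta2 (-0.72 to 0.39) and Rgs5 (-0.31 to 0.40). The count over all genes was 53. It was 0 with the replicate block, 221 among genes above the median level, 27 with arrays median-centred, 33 with array quality weights, 155 with trended and robust moderation, 0 without moderation, 1 at a threshold of 0.01, and 1 to 312 with each array left out. Of the 150 genes of the other lists, 1 (Mrap) was called. This became 0 with the replicate block, 6 (among the 109 kept) above the median level, 5 with trended and robust moderation, 0 without moderation, 0 at 0.01, and 0 to 10 with each array left out. The cause of these changes was not tested. Same-numbered arrays did not deviate together (r of -0.22, 0.03 and -0.21 between their deviations from the group means), so the numbers were not taken to pair the sorts. The overlap of groups was not recounted after the further quantile normalisation. With 3 and 4 arrays, the confidence interval of Acta2 includes differences of 1 on the log2 scale in both directions.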

Other observations

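Rgs4, the neighbour of Rgs5 on mouse chromosome 1 and a gene of the zona glomerulosa, had 7.21, 8.20 and 7.29 in Wnt+ replicates 1, 2 and 3, against 5.83 to 6.78 in SF1+, with no overlap (difference 1.35, SE 0.31, limma adjusted p = 0.126). Its highest array was Wnt+ replicate 2, which was the lowest Wnt+ array for Rgs5. Of 9 other R4 family RGS genes, 0 passed the adjusted threshold. At an unadjusted p under 0.05, 3 had a positive and 1 a negative difference (background 7.61% and 7.89% of all genes). Besides Rgs4 these were Rgs2 (0.44), Rgs8 (0.18) and Rgs3 (-0.94). Of 5 other actin genes, 0 passed at either threshold in limma, and the cytoplasmic actin genes Actb and Actg1 differed by -0.06 (SE 0.07) and -0.03 (SE 0.13), while Actg2 differed by -0.15 and Actc1 by 0.04.

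Of 11 small leucine-rich proteoglycan genes besides Dcn and Lum, 0 passed at either threshold in limma. Aspn, which encodes asporin, had 5.88, 3.53 and 6.11 in Wnt+ replicates 1, 2 and 3, against 3.21, 4.86, 4.61 and 3.75 in SF1+ replicates 1, 2, 3 and 4. Ogn, which encodes osteoglycin, had 7.67, 5.21 and 7.06 in the Wnt+ arrays, against 4.69, 6.78, 6.39 and 5.70 in the SF1+ arrays. Both had the SF1+ order seen in Dcn and Lum, while Chad differed by -0.15 (SE 0.09). Of 6 genes of vitamin K-dependent carboxylation and its substrates, 0 passed the adjusted threshold. Vkorc1, the enzyme that regenerates vitamin K, had 6.78, 6.37 and 6.36 in Wnt+ replicates 1, 2 and 3, against 5.45 to 5.96 in SF1+, with no overlap (difference 0.75, SE 0.16, limma adjusted p = 0.117), while Gas6 differed by -0.52, Bglap by -0.07 and Vkorc1l1 by 0.05.

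Of the remaining cell type lists, 12 of 12 chromaffin markers had a positive difference (background 54.8% of all genes), with a median of 1.19. At an unadjusted p under 0.05 there were 5 of them (background 7.61% in that direction), and Pnmt differed by 2.09 (SE 0.38). Of 10 Schwann and sustentacular markers, 3 had a positive difference at that level (median 0.16). Of 12 genes listed as macrophage markers, Ptprc (-1.61), which is shared by leukocytes in general, and Cd68 (-0.77) had a negative one (list median -0.19, background 7.89% of all genes in that direction). None of these genes passed the adjusted threshold in limma. In the steroidogenic list 12 of 12 genes had a positive difference at an unadjusted p under 0.05 (background 7.61% of all genes in that direction), and Mrap passed (limma adjusted p = 0.0396).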
